A study of Mus musculus with 8 samples.

Results

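Cell cycle and DNA replication genes were examined for binding of ASH2L in mouse fibroblasts. The set held 72 protein-coding genes out of 21938 and was defined by a pattern of gene symbols: 10 cyclins of the A, B, D and E types, 18 cyclin-dependent kinases, 8 E2F transcription factors and 36 replication proteins. Of these, 15 genes had an ASH2L site at a promoter. A site was one interval of the list of ASH2L-bound regions, and it was counted for a gene when its centre lay within 1 kb of any annotated transcription start site (TSS) of that gene.

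The cells were immortalised mouse embryo fibroblasts (iMEF) in which the floxed endogenous Ash2l gene had been inactivated through Cre-ER and replaced by human ASH2L carrying an FKBP degradation tag and an HA tag, delivered by lentivirus. All groups shared this background. Adding dTAG links the FKBP tag to the ubiquitin ligase subunit cereblon, so that the protein is degraded. Chromatin immunoprecipitation followed by sequencing (ChIP-seq) covered 8 libraries in 4 groups of 2 replicates, namely ASH2L and input chromatin, each from untreated cells and from cells given dTAG for 1 h. The methods describe precipitation through the HA tag, whereas the sample labels name Ash2l as the antibody target. The study worked mainly with a single clone of such cells, and the replaced protein is human and expressed from a construct rather than from its own locus. One list of 6444 intervals covered the series, and 6428 of them lay on the 21 assembled nuclear chromosomes. The list gave positions only. It held no signal, no read depth and no value per library, so treated and untreated cells were not compared here, replicate error could not be given, no difference below was tested, and the cell type could not be checked against marker genes.

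ASH2L is a core subunit of the KMT2 (COMPASS-like) complexes, which methylate lysine 4 of histone H3 at promoters, many of them within CpG islands. Cells move through the division cycle by switching cyclin-dependent kinases on and off through their cyclins, and E2F factors, held in check by the retinoblastoma family, drive transcription of genes needed for S phase. Replication then starts where the origin recognition complex (ORC) recruits CDC6 and CDT1 to load the MCM helicase, which GINS helps to activate before the polymerases, the sliding clamp PCNA and its loader RFC copy the strands. The study followed the proliferation of these cells after ASH2L loss. It also reported lower RNA for many cyclin and replication factor genes late in the treatment. Genes that lost trimethylation of lysine 4 early included terms for replication and the cell cycle. Neither RNA nor histone marks were examined here. The comparison made here asks at which genes of this machinery the protein was found on chromatin.

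The 15 genes with a promoter site made up 20.8% of the 72. Over all protein-coding genes the share was 14.0% (3078 of 21938), and over those having a CpG island, a CpG-rich stretch, no further than 1 kb from a TSS it was 19.0% (3059 of 16099). All 72 cell cycle genes had such an island, so the second share was the closer background, and at that rate 13.7 of the 72 would carry a site. The set as a whole was therefore near its background. The kinases carried a site at 8 of 18 genes (44.4%), where the island background would give 3.42. None of the 10 cyclins carried a site, where it would give 1.9. The E2F factors carried a site at 2 of 8 genes (25.0%) and the replication proteins at 5 of 36 (13.9%), with 1.52 and 6.84 genes at the island background. With sites of the smallest width in the list left out, the kinases stood at 4 of 18 (22.2%), against 17.5% of genes with an island and 12.9% of all protein-coding genes, and the whole set stood at 10 of 72 (13.9%). Widening the window to 3 kb added no member, against 15.4% of all protein-coding genes at that width. The gene just inside the limit was Gins1, with a site centred 908 bp from its TSS, and the nearest outside it was Rfc4, at 6.13 kb.

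**Figure D1:**
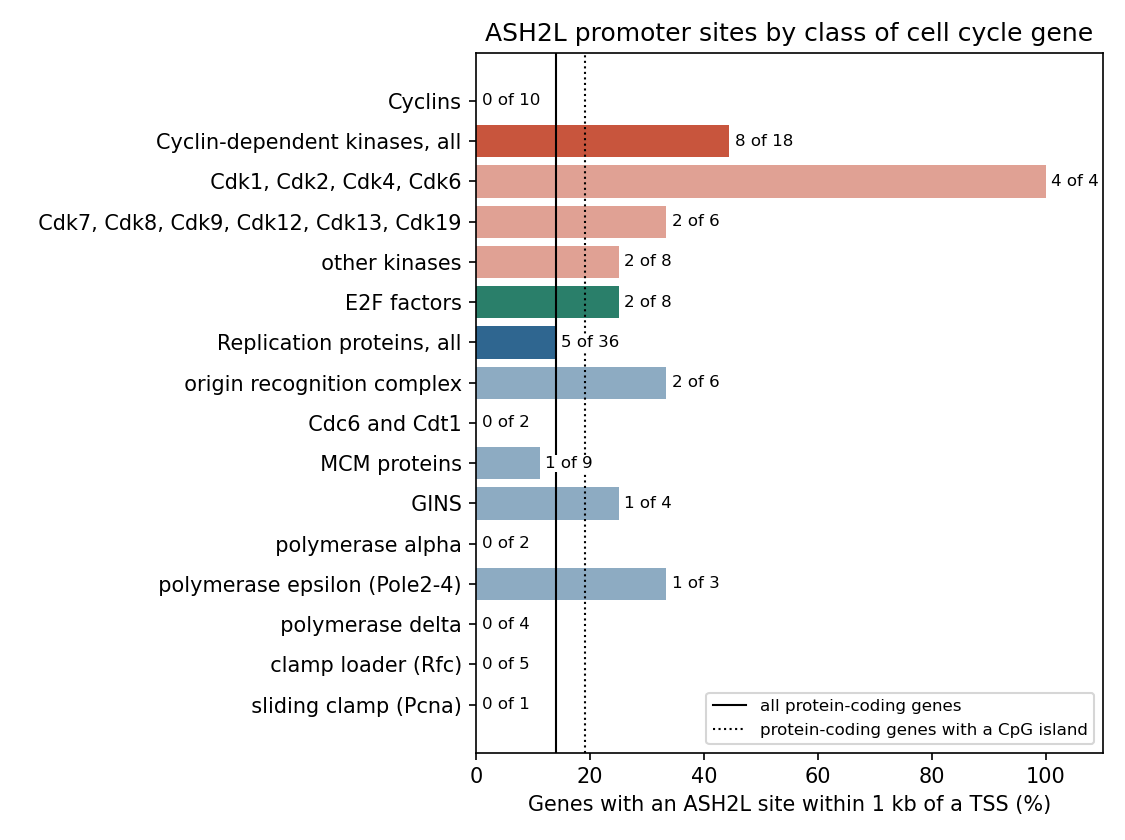
Share of genes (%) with an ASH2L site within 1 kb of a TSS, for each class of cell cycle gene (full colour) and its subgroups (pale), with the number of genes beside each bar; the solid line marks all protein-coding genes (14.0%) and the dotted line those with a CpG island (19.0%). The kinases reach 44.4% and Cdk1, Cdk2, Cdk4 and Cdk6 all carry a site, whereas cyclins stand at 0 of 10. The sites of Cdk1, Cdk2, Cdk4 and Cdk6 all have the smallest width in the list.

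Among the kinases, the sites fell on all 4 that drive the division cycle itself, against 19.0% of coding genes with a CpG island. These were Cdk4 and Cdk6, which pair with D-type cyclins in G1, Cdk2, which pairs with cyclins E and A, and Cdk1, the mitotic kinase. The Cdk4 site was centred 2 bp from a TSS (chr10:127063506-127063705) and the Cdk2 site 62 bp upstream of one (chr10:128704543-128704742). The Cdk2 TSS concerned belongs to a noncoding transcript, and the site lies 388 bp downstream of the start of the gene. The Cdk6 site lay 256 bp upstream (chr5:3341129-3341328), outside the gene. The Cdk1 site lay 638 bp downstream, in an intron (chr10:69352165-69352364). Each of these 4 sites was exactly 200 bp wide, which is the smallest width in the whole list, so all of them disappear when sites of the minimum width are left out. Cdk1, Cdk2 and Cdk4 also lie on chromosome 10, which is taken up below.

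Of the 6 kinases that act mainly in transcription (Cdk7, Cdk8, Cdk9, Cdk12, Cdk13 and Cdk19), 2 carried a site (33.3%, against 19.0% of coding genes with an island). Cdk8, the kinase of the Mediator complex, had a site of 393 bp centred 6 bp from the TSS (chr5:146231060-146231452). Cdk13, a cyclin K partner that phosphorylates RNA polymerase II, had the widest site of the set. Its main site spanned 1219 bp over the TSS and into a coding exon (chr13:17803969-17805187), wider than 97.7% of all coding promoter sites, and a second site of 401 bp followed it (chr13:17803477-17803877). The remaining 8 kinases included 2 with a site (25.0%), both from the less studied PFTAIRE and PCTAIRE branches of the family. The Cdk14 site of 249 bp (chr5:5380155-5380403) lay at an internal TSS of a transcript annotated as a retained intron, 40061 bp from the start of the gene, and the Cdk17 site of 248 bp (chr10:93161293-93161540) lay 527 bp downstream of the nearest TSS, in an intron. Kinases without a site were Cdk5, Cdk7, Cdk9, Cdk10, Cdk12, Cdk15, Cdk16, Cdk18, Cdk19 and Cdk20.

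The DNA under the kinase sites is given for Cdk1, Cdk4, Cdk6 and Cdk8, as examples from both groups of kinases that differ in how many CpG dinucleotides they hold. Sequences are from GRCm38.p6 (mm10), written 5′ to 3′ on the strand of the gene, with every CpG in capitals, and only the part of each site outside annotated exons is printed.
Cdk1, chr10:69352165-69352364, minus strand: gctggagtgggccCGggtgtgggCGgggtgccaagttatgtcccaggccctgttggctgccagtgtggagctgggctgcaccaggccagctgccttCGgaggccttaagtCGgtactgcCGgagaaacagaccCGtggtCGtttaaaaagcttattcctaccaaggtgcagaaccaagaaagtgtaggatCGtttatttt
Cdk4, chr10:127063506-127063533, plus strand: ctgCGcaagggtgaagatcaCGtgtcca
Cdk6, chr5:3341129-3341328, plus strand: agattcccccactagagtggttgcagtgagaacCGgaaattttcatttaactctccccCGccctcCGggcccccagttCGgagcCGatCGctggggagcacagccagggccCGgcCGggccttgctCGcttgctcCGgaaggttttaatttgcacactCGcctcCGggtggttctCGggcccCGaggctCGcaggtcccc
Cdk8, chr5:146231060-146231229, plus strand: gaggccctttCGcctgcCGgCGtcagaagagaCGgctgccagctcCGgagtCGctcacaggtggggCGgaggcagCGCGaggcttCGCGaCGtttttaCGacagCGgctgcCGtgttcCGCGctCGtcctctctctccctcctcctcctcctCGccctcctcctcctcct
The intronic Cdk1 site was the poorest in CpG of all member sites, with 8 in 200 bp and 57.0% G and C. The Cdk6 site held 15 CpGs in the same length at 64.0%, and the whole Cdk8 site held 52 in 393 bp at 71.2%. The short Cdk4 stretch ends where an annotated exon begins, and the letters CACGTG, an E-box of the kind bound by MYC and its relatives, occur in it.

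All 10 cyclins lacked a promoter site. They were the D-type cyclins Ccnd1, Ccnd2 and Ccnd3, the partners of CDK4 and CDK6, the G1-S cyclins Ccne1 and Ccne2, the S and M phase cyclins Ccna1 and Ccna2, and the B-type cyclins Ccnb1, Ccnb2 and Ccnb3. Their nearest sites lay at a median distance of 81.0 kb. Ccnd3 was the closest, with a site inside the gene body at 13.3 kb from a TSS, followed by Ccnb1 at 46.6 kb and Ccna1 at 59.4 kb, and Ccnd1 was the most distant at 469 kb. The median CpG island of the cyclin genes measured 1290 bp, against 1280 bp for the kinases that carried a site and 818 bp for the kinases that did not. Over all coding genes with an island the medians were 1130 bp with a site and 871 bp without. The E2F genes went the other way, with 1070 bp and 1260 bp. The B-type cyclins had the shortest, at 763 bp for Ccnb1, 567 bp for Ccnb2 and 309 bp for Ccnb3, and the other cyclins had 1032 bp or more. Because the list gives only intervals that passed peak calling, a missing site shows that no interval was listed there and not that ASH2L was absent.

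Of the E2F factors, E2f4 and E2f7 carried a site, and each is known mainly for repression. Among E2f4 to E2f8, 2 of 5 genes carried one (40.0%), against 19.0% of coding genes with a CpG island. E2f4, which binds promoters together with pocket proteins in resting cells, had a site of 219 bp centred 13 bp upstream of the TSS (chr8:105297541-105297759). E2f7, an atypical E2F without a DP partner, had a site of 272 bp centred 325 bp upstream of a TSS of a noncoding transcript (chr10:110744978-110745249). The activators E2f1, E2f2 and E2f3 carried none, nor did E2f5, E2f6 and E2f8. E2f3 had a listed site within its gene body, 43.7 kb from a TSS, and E2f2 had its nearest site at 28.9 kb. For E2f4 and E2f7, the part of the site upstream of the gene is printed in the same way. The E2f4 site goes on across the TSS, whereas the E2f7 site ends before it.
E2f4, chr8:105297541-105297662, plus strand: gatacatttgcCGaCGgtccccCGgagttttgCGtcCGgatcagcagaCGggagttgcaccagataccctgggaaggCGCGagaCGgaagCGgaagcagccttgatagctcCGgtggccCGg
E2f7, chr10:110744978-110745249, plus strand: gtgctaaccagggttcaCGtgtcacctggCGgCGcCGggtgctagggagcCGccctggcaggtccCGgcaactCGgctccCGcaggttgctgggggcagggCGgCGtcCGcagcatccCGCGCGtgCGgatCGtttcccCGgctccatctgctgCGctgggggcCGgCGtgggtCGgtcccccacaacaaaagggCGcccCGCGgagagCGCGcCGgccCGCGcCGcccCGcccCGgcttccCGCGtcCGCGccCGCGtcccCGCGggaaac
The E2f7 site was the denser of the pair, with 40 CpGs at 76.8% G and C, against 27 CpGs at 70.3% over the whole E2f4 site. Near its 3′ end the E2f7 stretch contains the letters GCGGGAAA, the reverse complement of an E2F motif (TTTCCCGC), and no other member site contained one. That is 1 of 17 member sites (5.88%), close to the 4.96% of all coding promoter sites.

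**Figure D2:**
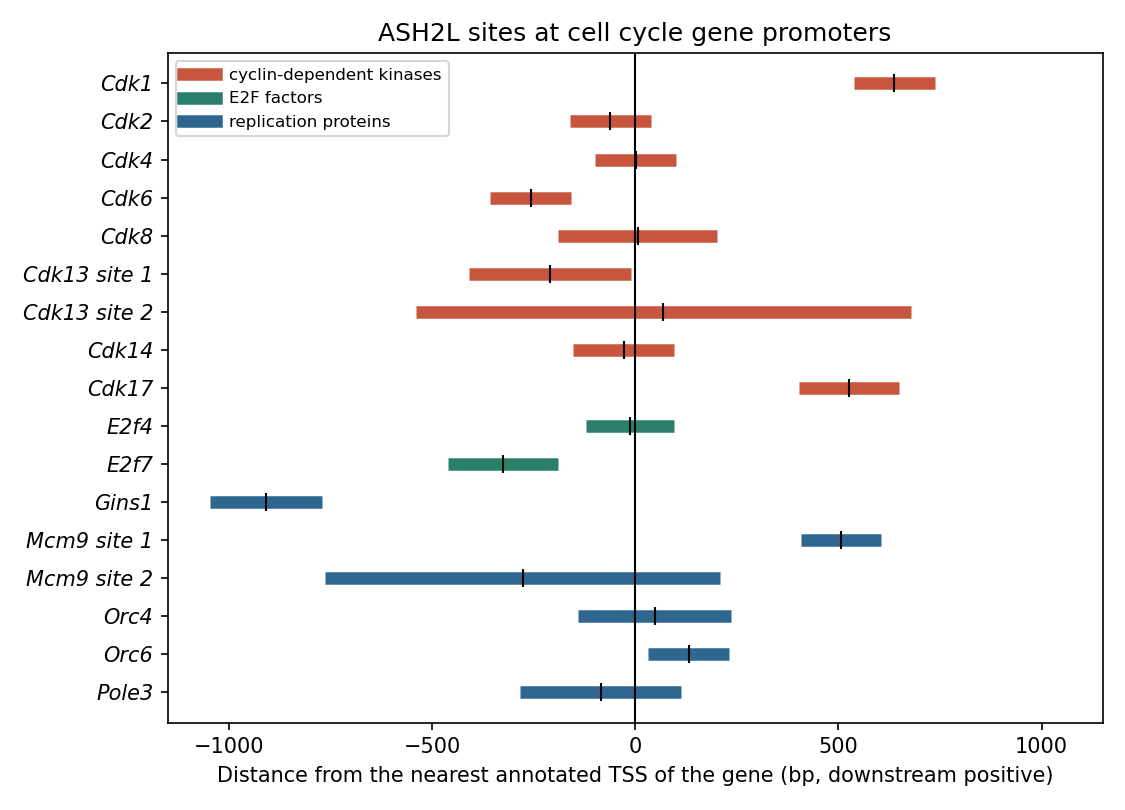
Each of the 17 ASH2L sites at cell cycle gene promoters drawn to scale as a bar along the distance (bp) from the nearest annotated TSS of its gene, downstream to the right, with a tick at the centre of the site. The sites of Cdk1, Cdk17 and Gins1 lie away from the TSS, whereas those of Cdk4, Cdk8 and E2f4 span it; the sites of Cdk13 are each measured from their own nearest TSS.

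The 5 replication genes with a site came from different steps of the process. Orc4 and Orc6 encode subunits of ORC, and 2 of its 6 genes thus carried a site (33.3%, against 19.0% of coding genes with an island). The Orc4 site of 379 bp was centred 48 bp downstream of the TSS (chr2:48948994-48949372) and the Orc6 site of 200 bp 132 bp downstream (chr8:85299955-85300154). Both distances are from internal TSSs, which lie 1046 bp and 291 bp from the start of Orc4 and Orc6. Mcm9, which works with MCM8 in recombination rather than in the replicative helicase, had a wide site of 973 bp (chr10:53596838-53597810) and a second one of 200 bp in an intron (chr10:53596441-53596640). Gins1 had a site of 277 bp (chr2:150904354-150904630), and Pole3, a histone-fold subunit of DNA polymerase epsilon, had one of 398 bp centred 85 bp upstream of the TSS (chr4:62524954-62525351). The TSSs nearest to the sites of Gins1, Orc4 and Mcm9 belong to noncoding transcripts. Gins1 is no longer counted when only TSSs of protein-coding transcripts are used.

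Most of the replication genes had no listed site. None of the 6 genes of the MCM2-7 helicase carried one, where the island background would give 1.14, nor did the loaders Cdc6 and Cdt1, the clamp Pcna, the 5 clamp loader genes Rfc1 to Rfc5, Pola1 and Pola2 of polymerase alpha, or Pold1 to Pold4 of polymerase delta. The other replication genes without a site were Orc1, Orc2, Orc3, Orc5, Mcm8, Mcm10, Gins2, Gins3, Gins4, Pole2 and Pole4. Over the 31 replication genes without a promoter site, the nearest site lay at a median of 102 kb, from 6.13 kb at Rfc4 and 7.20 kb at Pole2 to 579 kb at Mcm4.

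Every replication gene with a site shared it with a neighbouring protein-coding gene transcribed in the opposite direction. The site of Orc4 was shared with Mbd5, that Orc6 with the retromer gene Vps35, that Pole3 with 4933430I17Rik, that Gins1 with Abhd12, and both sites of Mcm9 with Asf1a, a histone chaperone gene. In 2 of these pairs the neighbour was the closer gene. The Gins1 site was 155 bp from an Abhd12 TSS and 908 bp from that Gins1, and the wide Mcm9 site was 69 bp from an Asf1a TSS and 277 bp from that Mcm9. The Mcm9 TSS concerned lies 33392 bp from the start of that gene. Among kinases, sharing was seen at 1 of 8 genes, where the Cdk2 site also lay 448 bp from a TSS of Pmel, and it was seen at 0 of 2 E2F genes. Over all protein-coding genes with a site, 27.0% shared it with another coding gene.

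Sharing was also set against how many replication genes have such a neighbour at all. Of the 36, 16 had a divergent antisense TSS of another gene nearby, and 5 of these carried a site (31.2%). The other 20 had no such partner, and none of them carried a site, which follows from the sharing just described. Over all protein-coding genes the shares were 28.2% of 4004 with a divergent TSS and 10.9% of 17934 without one. Kinases did not show this order, with a site at 7 of the 15 without a divergent partner (46.7%) and at 1 of only 3 with one (33.3%). This division was looked at after the sites were known.

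The promoters of Orc6 and Pole3 are printed as examples of shared sites, with CpGs in capitals. The Orc6 stretch begins directly after an annotated exon, and the Pole3 stretch runs up to the TSS.
Orc6, chr8:85299993-85300154, plus strand: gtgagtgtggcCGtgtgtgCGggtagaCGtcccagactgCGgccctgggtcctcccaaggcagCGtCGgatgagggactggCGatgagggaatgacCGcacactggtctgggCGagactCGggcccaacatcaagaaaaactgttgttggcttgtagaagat
Pole3, chr4:62525069-62525351, minus strand: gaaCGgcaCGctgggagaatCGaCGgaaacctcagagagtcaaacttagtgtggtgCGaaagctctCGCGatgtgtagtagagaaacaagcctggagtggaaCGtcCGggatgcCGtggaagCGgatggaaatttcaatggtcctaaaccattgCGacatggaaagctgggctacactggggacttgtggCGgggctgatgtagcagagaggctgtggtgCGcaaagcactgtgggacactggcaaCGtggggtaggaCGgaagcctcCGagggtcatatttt
The whole Pole3 site held 26 CpGs in 398 bp at 58.0% G and C, and that Orc6 held 15 in 200 bp at 62.0%.

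Chromosome 10 held many of the genes with a site, which was seen only after the sites had been assigned. Of the 7 cell cycle genes on it, 6 carried a site (Cdk1, Cdk2, Cdk4, Cdk17, E2f7 and Mcm9), and Cdk19 did not. On all other chromosomes 9 of 65 did (13.8%). Over protein-coding genes the shares were 16.3% on chromosome 10 and 13.9% elsewhere. Without chromosome 10 the kinases stood at 4 of 13 (30.8%), the E2F factors at 1 of 7 (14.3%) and the replication proteins at 4 of 35 (11.4%), which left the kinases highest of the 4 classes. With the sites of minimum width left out instead, the kinases (22.2%) came below the E2F factors (25.0%). Of the 115 other cell cycle genes examined further on, 0 of 5 on chromosome 10 carried a site.

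Chromosome 10 was also richer in sites away from any TSS. Sites more than 3 kb from any TSS numbered 1.77 per Mb there, against 0.832 per Mb on all other chromosomes together, and chromosome 15 had more still, at 2.36 per Mb. Within chromosome 10 the excess lay toward the distal end. The 10-Mb stretch with E2f7 held 7.8 such sites per Mb and that with Cdk2 and Cdk4 held 2.3, whereas the stretches with Mcm9, Cdk1 and Cdk17 held 1.1, 1.0 and 1.0. Of the 7 member sites on chromosome 10, 4 had the minimum width (57.1%), against 2 of 10 elsewhere, and of all coding promoter sites on chromosome 10 it was 10.4%. Whether the site density of chromosome 10 contributes to the kinase count was not tested.

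**Figure D3:**
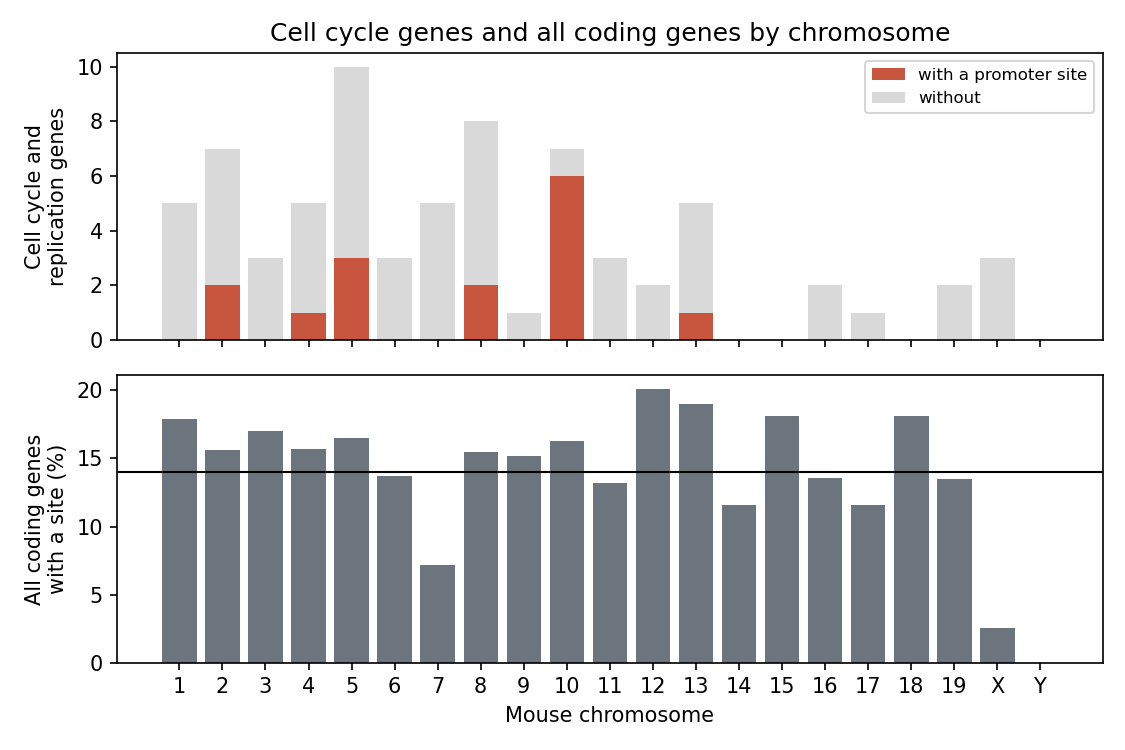
Upper panel, number of cell cycle genes on each mouse chromosome with (red) and without (grey) an ASH2L promoter site; lower panel, share (%) of all protein-coding genes on that chromosome with a site, the line marking 14.0%. Chromosome 10 stands out in the upper panel, with 6 of 7 genes, and not in the lower one, at 16.3%.

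The 17 sites of the set had a median width of 249 bp (quartiles 200 and 393 bp), against 305 bp (232 and 425 bp) for the 3168 sites at coding promoters, and 6 of the 17 had the minimum width (35.3% against 9.25%). The 6 belonged to Cdk1, Cdk2, Cdk4, Cdk6, Orc6 and the smaller Mcm9 site. Only the wide sites of Cdk13 and Mcm9 exceeded 500 bp (11.8% against 17.0%). Of the 17 sites, 8 were centred downstream of the TSS (47.1%) against 67.2% of coding promoter sites, and 9 of 17 spanned a TSS (52.9% against 56.8%). The median offset was -13.0 bp for the members and 73.5 bp for coding promoter sites, where negative means upstream, and its sign for the members depended on which TSSs were used. Member sites were measured from the member's own TSS, and coding promoter sites from the nearest TSS of any coding gene. These comparisons are therefore not strictly alike. The Gins1 site and the wide Mcm9 site, upstream of those genes, lay 155 bp and 69 bp downstream of a closer neighbour's TSS. The smaller Mcm9 site, downstream of Mcm9, lay 216 bp upstream of an Asf1a TSS. All 17 sites overlapped a CpG island, and 3059 of the 3078 coding genes with a site had one. Their G and C content had a median of 70.0%, from 57.0% at Cdk1 to 82.7% at Cdk14, against 66.5% for coding promoter sites.

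For the 57 cell cycle genes without a promoter site, the nearest site lay at a median of 97.4 kb, and 19 of them (33.3%) had one within 50 kb. All protein-coding genes without a promoter site had a median of 124 kb and 26.8% within 50 kb. The medians of the classes lay within a narrow range, 81.0 kb for cyclins, 98.8 kb for kinases, 112 kb for E2F factors and 102 kb for replication proteins. After Rfc4 and Pole2, the closest were Mcm7 at 10034 bp and Ccnd3 at 13295 bp, and the most distant was Cdk16 at 592 kb.

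**Figure D4:**
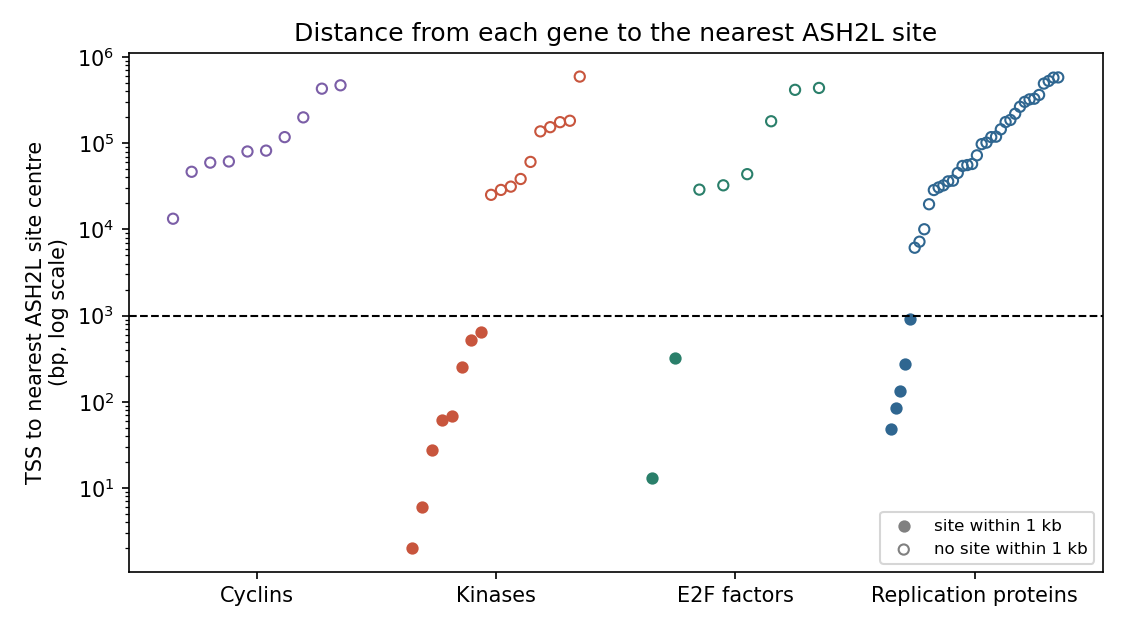
Distance (bp, log scale) from each of the 72 genes to the centre of the nearest ASH2L site, by class; filled circles are genes with a site within 1 kb (dashed line) and open circles those without. No gene falls between Gins1 at 908 bp and Rfc4 at 6.13 kb, and all 10 cyclins lie at 13.3 kb or more.

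E2F motifs were several times as common at these promoters as at other genes, and in the window used here no replication gene with the motif had an ASH2L site. The motif was searched as TTTGGCGC, TTTCGCGC, TTTCCCGC or TTTGCCGC on both strands, from 250 bp before to 50 bp after the start of the gene. It was found at 18 of the 72 genes (25.0%), against 2.79% of all protein-coding genes (611 of 21938) and 3.65% of those with a CpG island. Replication genes had it at 12 of 36, namely Cdc6, Cdt1, Mcm3, Mcm4, Mcm5, Mcm6, Mcm8, Orc1, Orc3, Pola1, Pole2 and Rfc3, and none of these 12 carried an ASH2L site. The 5 replication genes with a site were all among the 24 without the motif (20.8%). E2f1, E2f2, E2f3 and E2f7 had it, as did Cdk1 and Cdk2, and no cyclin did. Across the 72 genes a site was present at 3 of 18 with the motif (16.7%) and at 12 of 54 without it (22.2%). The 3 were Cdk1, Cdk2 and E2f7, all on chromosome 10, and on the other chromosomes 0 of 15 genes with the motif carried a site. In a wider window of 500 bp on either side, 20 of the 36 replication genes had the motif, against 9.38% of protein-coding genes with an island and 7.12% of all, among them Gins1, which carries a site. In the narrow window, over protein-coding genes with a CpG island, a site was present at 20.9% of those with the motif and 18.9% of the others, and over all protein-coding genes at 20.1% and 13.9%.

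The promoters of Cdk1, Mcm5 and Mcm6 illustrate this, one with an ASH2L site in the gene and the others without any nearby. They were picked after the values were seen. E2F motifs are in capitals, and where motifs on opposite strands overlap the capitals run on.
Cdk1, chr10:69353016-69353063, minus strand: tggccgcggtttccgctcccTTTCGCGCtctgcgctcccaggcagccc
Mcm5, chr8:75109336-75109568, plus strand: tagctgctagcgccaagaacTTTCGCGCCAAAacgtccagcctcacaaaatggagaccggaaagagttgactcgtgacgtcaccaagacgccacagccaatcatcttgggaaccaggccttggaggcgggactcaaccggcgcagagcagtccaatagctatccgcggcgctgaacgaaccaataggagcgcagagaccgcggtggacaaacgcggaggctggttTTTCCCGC
Mcm6, chr1:128359725-128359835, minus strand: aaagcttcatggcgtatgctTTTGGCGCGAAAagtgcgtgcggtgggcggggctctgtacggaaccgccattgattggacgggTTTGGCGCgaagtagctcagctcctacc
The Cdk1 motif starts 105 bp upstream of the gene start, whereas its ASH2L site lies downstream in the intron, so they do not overlap. Mcm5 and Mcm6, subunits of the replicative helicase, each have 3 matches, of which a pair overlaps on opposite strands. Their nearest sites lay at 36.7 kb and 57.4 kb. A match is a match of letters only and says nothing of whether a factor binds.

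**Figure D5:**
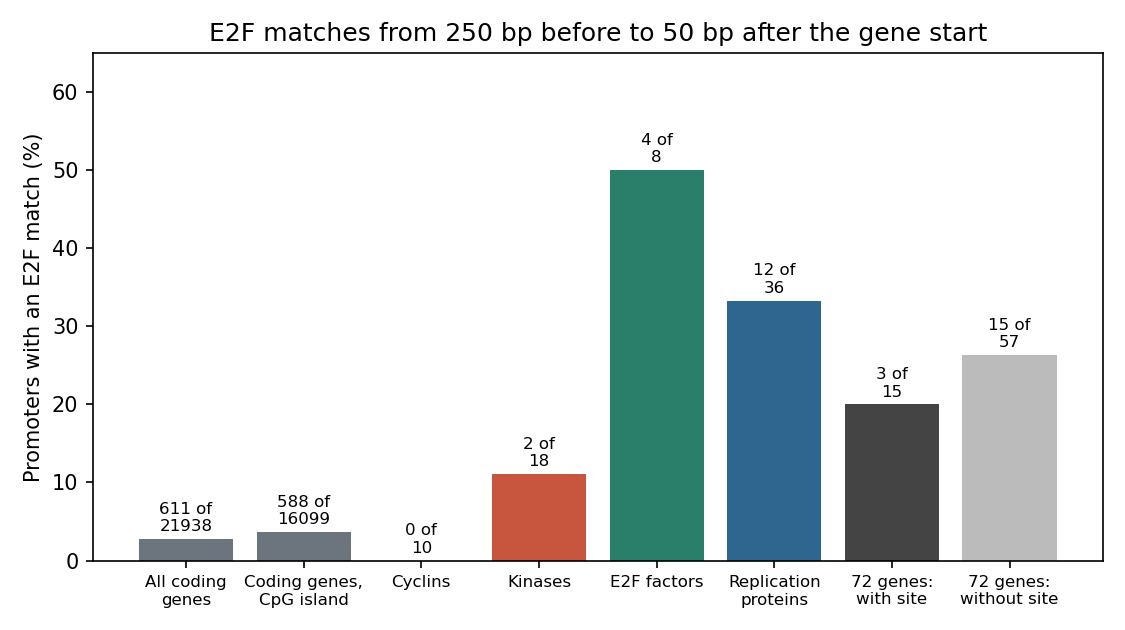
Share of promoters (%) with an E2F motif from 250 bp before to 50 bp after the gene start, for all coding genes, those with a CpG island, the 4 classes, and the 72 genes divided by whether they carry an ASH2L site, with counts above the bars. Cyclins had none, E2F genes 4 of 8 and replication genes 12 of 36, against 2.79% of all coding genes.

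Other promoter motifs were counted in the same window and are set against protein-coding genes with a CpG island, since all 72 genes have one. The CCAAT box of NF-Y occurred at 36 of 72 genes (50.0% against 38.2%), and at 23 of the 36 replication genes. The ETS motif CCGGAAG occurred at 20 genes (27.8% against 14.2%) and the SP/KLF motif CCCGCCC at 37 (51.4% against 41.5%). The E-box CACGTG occurred at 11 (15.3% against 9.5%). The CHR element of late cell cycle genes, TTTGAA or TTCGAA, occurred at 9 (12.5% against 14.6%), Cdk1 and Ccnb2 among them. Within the ASH2L sites themselves the E-box was found in 4 of 17, those of Cdk2, Cdk4, E2f7 and Orc4 (23.5% against 6.69% of coding promoter sites), and the SP/KLF motif in 8 (47.1% against 36.3%). The ETS motif was found in 3 (17.6% against 19.0%) and the CCAAT box in 1 (5.88% against 19.8%). The motifs of NRF1 (GCGCATGC), CRE-binding factors (TGACGTCA) and AP-1 (TGAGTCA or TGACTCA) were found in no member site, and in 1.61%, 1.42% and 3.66% of coding promoter sites.

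A further 115 genes of the cell cycle, in 7 lists outside the symbol rule, gave a broader view. Of these, 34 carried a promoter site (29.6%), where the island background would give 21.9 of 115. The background for each list is 19.0% of coding genes with a CpG island. The share was highest for CDK inhibitors and related genes, at 4 of 8 (50.0%). Mitosis and anaphase genes came next, at 12 of 31 (38.7%). The share was 5 of 14 (35.7%) for origin firing and fork proteins, among them Cdc7, the kinase that starts replication at licensed origins, and Topbp1. Pocket proteins, DP partners and MuvB subunits had 4 of 12 (33.3%), with Rbl2 and Lin9 among them. Nucleotide supply genes had 3 of 9 (33.3%), namely Dut, Rrm2 and Slbp. Other cyclins and CDK regulators were near the background, with 5 of 24 (20.8%), namely Ccnc, Ccnk, Ccnl1, Cdk11b and Mnat1. Genes of DNA synthesis and maturation had 1 of 17 (5.88%), Atad5. Ccnc encodes the cyclin partner of CDK8 and CDK19 and Ccnk that of CDK12 and CDK13, and of these kinase genes Cdk8 and Cdk13 had a site while Cdk12 and Cdk19 had none. Both cyclin genes carried sites, with a width of 411 bp at an offset of -17 bp from the TSS for Ccnc and 285 bp at -652 bp for Ccnk.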

How the data were processed

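ChIP-seq of tagged ASH2L and input in iMEF cells was examined. Per the paper's methods and the submitters' processing notes, the authors trimmed the reads with Trim Galore, aligned them with BWA to mm10 (GRCm38.p6), handled them with SAMtools and Picard, merging replicates, and called narrow peaks with MACS2; DESeq2 served for their differential analysis, which was not used here. Versions and the peak threshold are not given in the sources used here. The deposited table lists the start and end of each site, in base pairs, with no count, signal or p-value. Starts were read as 0-based and are printed 1-based. Of the sites, 16 outside the assembled chromosomes were left out.

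Sites were assigned to protein-coding genes of GENCODE mouse release 21, an older release than the authors' own. CpG islands (at least 200 bp, G and C above 50%, observed to expected CpG above 0.6) and motifs were computed from the GRCm38.p6 sequence of RefSeq with Python 3.11.15, NumPy 2.4.6 and pandas 2.3.3. The assignment was tested on simulated sites. No test between groups was run. Every member was named, with the position and width of each site and further values for some of them. The members and gene lists were chosen with earlier results of these data known. Alternatives changed the window, the TSSs used, the width of sites, their merging, the island definition and the motif window. The alternative without chromosome 10 was added after seeing the data.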

Additional observations from a re-analysis of the deposited data

How the results depend on the processing

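No cyclin gained a site with the 3 kb window, with any overlap of the 1 kb window or with merged sites; the other settings could only remove sites, and no cyclin lies on chromosome 10. The number of all 72 genes with a site ranged from 9 to 15, the lowest being without chromosome 10, an alternative chosen after seeing the data that also removes 7 genes. It was 10 with only sites wider than the minimum width, which loses Cdk1, Cdk2, Cdk4, Cdk6 and Orc6. The kinases fell from 8 to 4 when only sites wider than the minimum width were used, losing Cdk1, Cdk2, Cdk4 and Cdk6, and to 4 without chromosome 10. The E2F genes fell from 2 to 1 without chromosome 10, which holds E2f7. The replication genes fell from 5 to 3 when only the 5' end of each gene was used, losing Mcm9 and Orc4. They fell to 4, losing Gins1, with a window of 500 bp and with TSSs of protein-coding transcripts only. The genes with an E2F motif rose from 18 to 30 with a window of 500 bp on either side, while the share of all protein-coding genes rose from 2.79% to 7.12%, and Gins1 then had both the motif and a site. The median offset of the sites changed sign, from -13.0 bp to 51.0 bp with TSSs of protein-coding transcripts only and 49.0 bp with the 5' end of the gene only. The other alternatives moved a count by at most 1.5 times or a median by less than its spread.

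No paired analysis was possible because the list holds no value per sample. The depth is unknown, the list used does not assign sites to treated or untreated cells, which were not compared here, and a gene without a listed site is one where no interval passed the peak calling.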

Other observations

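Of 8 listed CDK inhibitors and related genes, 4 carried a site (50.0%, against 19.0% of coding genes with a CpG island) and 4 did not. Cdkn2c, which encodes the CDK4 and CDK6 inhibitor p18, had a site of 2571 bp at an offset of -649 bp from its TSS, against 200 bp at both Cdk4 and Cdk6 and 1219 bp at Cdk13, the widest kinase site. Cdkn2a, which encodes p16 and p19ARF, had sites of 543 bp and 804 bp, and the neighbouring Cdkn2b had one of 200 bp. Cdkn1b, which encodes p27, had sites of 475 bp and 425 bp.

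The anaphase-promoting complex, the ubiquitin ligase that ends mitosis, had a site at 7 of the 14 subunit genes listed, where the island background (19.0%) would give 2.66, namely Anapc1, Anapc10, Anapc11, Anapc13, Cdc16, Cdc26 and Cdc27. This grouping was made after the values were seen.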
